A study of Mus musculus with 12 samples.

Results

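The genes examined here encode the proteins of the transcription factor AP-1 and some of its fellow immediate early factors in BV2 cells, an established line of mouse microglia. They are the Fos family (Fos, Fosb, Fosl1 and Fosl2), the Jun family (Jun, Junb and Jund), the related factor gene Atf3, the zinc finger factor gene Egr1 and the nuclear regulator gene Ier2. The 10 genes were taken by symbol from the deposited tables, and all 10 had a row among the 24934 genes listed. Of these, 9 were among the 13249 genes with enough reads to be tested, and Egr1 was not.

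The study compared 3 groups of 4 libraries. Control cells are labelled only as controls, OGD cells were deprived of oxygen and glucose and then re-oxygenated, a culture model of ischaemia and reperfusion, and Acacetin cells received 10 µM of the plant flavone acacetin. The treatment label of the Acacetin group names only acacetin, and its cells were read as deprived and re-oxygenated from the design text. All groups are of 1 cell line. No label says how long each step lasted or whether replicates were separate cultures, so p-values measure only the spread between these samples.

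AP-1 is a dimer. Fos proteins bind DNA only together with a Jun protein, whereas Jun proteins also pair with each other, and ATF3 pairs with Jun proteins or with itself. Fos, Fosb, Egr1 and Ier2 are classical immediate early genes, which are transcribed within minutes of a stimulus from promoters held ready by the serum response factor and by CREB, and whose mRNAs are quickly degraded. Fosl1 and Fosl2 are induced later and last longer, and Jund is expressed steadily in many resting cells. In microglia and macrophages AP-1 acts with the myeloid factors at enhancers of inflammatory and wound-response genes.

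Promoters of 7 of the 10 genes were matched by symbol in the RefSeq table of build GRCm38.p6, an earlier build than the GRCm39 named for the counts. Fosl1, Egr1 and Ier2 were not matched. The promoters of Fos, Junb and Atf3 are shown because each carries the core letters of the element that CREB and ATF proteins recognise, and Fos a TATA box. Capitals mark these letters. Each window is the 250 bases before the start, 5′ to 3′ along the gene's strand. They lie at chr12:85473640-85473889 on the plus strand (Fos), chr8:84978749-84978998 on the minus strand (Junb) and chr1:191183334-191183583 on the minus strand (Atf3).
Fos: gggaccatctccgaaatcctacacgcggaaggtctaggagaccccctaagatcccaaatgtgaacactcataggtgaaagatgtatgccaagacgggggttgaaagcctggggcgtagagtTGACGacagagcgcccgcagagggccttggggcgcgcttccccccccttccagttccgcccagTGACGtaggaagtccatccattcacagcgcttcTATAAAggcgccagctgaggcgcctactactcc
Junb: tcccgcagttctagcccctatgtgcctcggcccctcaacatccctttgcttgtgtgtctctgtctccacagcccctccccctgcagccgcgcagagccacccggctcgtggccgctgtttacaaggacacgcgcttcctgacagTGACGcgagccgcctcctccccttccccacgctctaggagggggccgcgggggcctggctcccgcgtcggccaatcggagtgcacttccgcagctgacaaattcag
Atf3: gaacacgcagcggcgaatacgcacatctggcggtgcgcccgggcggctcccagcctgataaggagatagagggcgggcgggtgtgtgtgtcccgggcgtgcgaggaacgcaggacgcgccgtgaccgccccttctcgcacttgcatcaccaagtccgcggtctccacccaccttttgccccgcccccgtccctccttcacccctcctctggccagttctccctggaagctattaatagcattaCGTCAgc

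Letters were searched on both strands from 250 bases before to 50 after the start. The CREB core TGACG, whose choice followed a look at these sequences, was found in 4 of the 7 matched promoters (Fos, Fosb, Junb and Atf3) and in 20.8% of the 32851 promoters of the table. In Fos it began 129 and 66 bases before the start, with TATAAA 33 bases before it, and in Atf3 it was on the other strand, read as CGTCA, 7 bases before. TATAAA, chosen in the same way, was in 2 of 7 (Fos, and Junb just past the start) and in 13.6% of all. The full palindrome TGACGTCA, the AP-1 site TGACTCA, the Egr site GCGTGGGCG and the CArG box of the serum response element were in 0 of 7, against 1.79%, 5.20%, 0.612% and 1.63% of all promoters. That says only that these letters are not in these windows. Jund was at 46.7% GC and the other matched windows ran from 58.7% (Fos) to 68.3% (Fosb), against a median of 52.7% over all promoters. The shares of promoters holding each set of letters were not adjusted for GC content.

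Depth ran from 16427886 to 32693066 counted reads per library. Of 14 microglial and myeloid markers, 11 were at 1 FPKM or more in every library. Among adult microglial markers P2ry12 and Cx3cr1 stayed under 1 FPKM, while Tmem119 ran from 1.2 to 2.67 FPKM. Ptprc ran from 0.08 to 1.47 FPKM. All 12 markers of neurons, glia, endothelium, fibroblasts and epithelium stayed under 1 FPKM, with a summed level of 0.260 to 0.300 in Control, 0.120 to 0.410 in OGD and 0.170 to 0.350 FPKM in Acacetin. Reads of 18S ribosomal RNA took 13.1% of OGD 2 and 21.3% of OGD 3 but no more than 1.86% of any other library. How strongly log2 expression leaned on log2 gene length also varied, with slopes between -0.236 (Acacetin 1) and 0.346 (Acacetin 3). In bulk RNA, fewer cells expressing a gene and less RNA per cell cannot be told apart.

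Levels were compared between genes on the deposited FPKM scale, which divides reads by gene length and library size. In Control, Jund was highest with 183 ± 21.2 FPKM (SD, n = 4), followed by Junb with 79.0 ± 1.81, Ier2 with 50.01 ± 4.23, Atf3 with 41.8 ± 11.8 and Jun with 15.02 ± 3.41. The Fos family lay below them, with Fosl1 at 5.46 ± 0.316, Fos at 1.86 ± 0.538, Fosl2 at 1.72 ± 0.190 and Fosb at 0.108 ± 0.0492 FPKM. Only Ier2 and Atf3, and Fos and Fosl2, overlapped as neighbours in this order among the Control libraries. In both treated groups Fosl1 came to overlap Jun, with 14.9 ± 4.55 against 15.8 ± 5.62 FPKM in OGD and 15.6 ± 2.56 against 17.0 ± 2.51 FPKM in Acacetin. FPKM divides by all reads, so the high 18S share lowers every other gene's FPKM in OGD 2 and 3. Comparisons between groups therefore used CPM, counts per unit of a library size that the TMM method had scaled, setting aside genes that stand apart.

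Egr1 (ENSMUSG00000038418.8), an early growth response factor and one of the most widely used markers of recent stimulation, was almost absent. A single read, in Acacetin 3, was counted among 314942687 reads. A count of 0 allows up to 0.0284 RPM (on unscaled library totals) over the 4 Control libraries and 0.0306 over the 4 OGD libraries, for counting error only. Its relatives, named after their values were seen, were low but present. Egr3 averaged 2.12 ± 0.537 CPM in Control and 2.17 ± 0.870 in OGD, Egr2 averaged 0.604 ± 0.175 and 0.777 ± 0.291 CPM, and Egr4 had no row.

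Deprivation and re-oxygenation were compared with the control state in OGD against Control. Of the 9 tested genes, 2 rose, Fosl1 and Ier2, 1 fell, Atf3, and 6 were not called by edgeR. Over all 13249 genes 28.8% were called, so 3 of 9 was near the background. At an unadjusted p under 0.05 there were 4 of the 9, Fos being the addition, against 39.3% of all genes. The median log2 fold change was 0.17 for the 9 genes and 0.03 for all genes. The groups did not overlap in the same 3 genes, against 36% of all genes.

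Fosl1 (ENSMUSG00000024912.7, chromosome 19), which encodes a late-acting Fos protein without the strong activation domain of Fos, changed most. It stood at 14.0, 12.2, 14.0 and 12.1 CPM in Control 1 to 4 and at 34.3, 41.5, 37.2 and 41.2 CPM in OGD 1 to 4. Every OGD library was above every Control library by a wide margin. The log2 fold change was 1.56 ± 0.14 (SE), 2.95-fold, with an adjusted p of 2.64e-05. The call was kept in all 20 alternative analyses, with log2 fold changes between 1.26 and 1.61.

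Fos itself (ENSMUSG00000021250.14, chromosome 12), the prototype of the family, was much closer to its Control level. Its Control libraries had 4.58, 5.35, 3.85 and 6.60 CPM and its OGD libraries 8.56, 5.45, 7.34 and 7.99 CPM. OGD 2 lay inside the Control range and the other OGD libraries above it. The log2 fold change was 0.53 ± 0.21 with an adjusted p of 0.0808, which did not pass. It did pass with DESeq2 (0.0437) and without OGD 2 (0.0482), and the log2 fold change ranged from 0.27 to 0.71 over the alternatives.

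Fosb (ENSMUSG00000003545.4, chromosome 7), a second stimulus-induced Fos gene, rested on 10 to 49 reads per library. Its Control libraries spanned 0.491 to 1.15 CPM and its OGD libraries 0.781 to 1.55 CPM, and the groups overlapped (log2 fold change 0.52 ± 0.34, adjusted p = 0.282). Fosl2 (ENSMUSG00000029135.11, chromosome 5), the other late Fos gene, had 16.7 to 21.7 CPM in Control. In OGD it split into 25.5 and 22.9 CPM in OGD 1 and 4 and 15.4 and 16.6 CPM in OGD 2 and 3. The latter are rich in 18S and also had the lowest slopes on gene length in OGD (-0.178 and -0.0969). The log2 fold change of Fosl2 was 0.04 ± 0.17 (adjusted p = 0.883) and turned to -0.12 on FPKM + 0.1, where the median of all genes was -0.11. Without OGD 2 and 3 it was 0.31 (adjusted p = 0.191).

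The Jun genes did not pass the test. Jun (ENSMUSG00000052684.5, chromosome 4), the main partner of Fos, had 54.9, 60.7, 42.2 and 66.0 CPM in Control and 63.8, 57.6, 60.8 and 70.1 CPM in OGD, with most libraries in a shared range (log2 fold change 0.17 ± 0.15, adjusted p = 0.410). Junb (ENSMUSG00000052837.8, chromosome 8) had 227, 211, 217 and 200.4 CPM in Control and 287, 207, 223 and 219 CPM in OGD, where OGD 1 alone was well above Control (0.13 ± 0.18, adjusted p = 0.635). On FPKM + 1 Junb was at -0.03, where the median of all genes was -0.04. Jund (ENSMUSG00000071076.9, chromosome 8), the steady Jun gene, had 431, 328, 335 and 345 CPM in Control and 367, 329, 322 and 276 CPM in OGD (-0.15 ± 0.18, adjusted p = 0.580). For these 3 genes the fold within 2 SE ran from 0.922 to 1.38 for Jun, 0.855 to 1.40 for Junb and 0.699 to 1.16 for Jund, so changes within those ranges were not excluded.

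Atf3 (ENSMUSG00000026628.14, chromosome 1), a stress-induced factor that often represses inflammatory genes, fell. It had 87.8, 119, 81.8 and 132 CPM in Control 1 to 4 and 66.3, 65.8, 71.2 and 63.1 CPM in OGD 1 to 4. The Control libraries were spread widely and the OGD libraries narrowly, and all 4 OGD libraries were below all 4 Control libraries. The log2 fold change was -0.66 ± 0.16, or 0.634 of the Control level, with an adjusted p of 0.00655, and the call was kept in all 20 alternatives.

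Ier2 (ENSMUSG00000053560.6, chromosome 8), an immediate early gene whose protein works in the nucleus, rose. It had 85.5, 89.0, 91.9 and 91.2 CPM in Control 1 to 4 and 146, 131, 134 and 118 CPM in OGD 1 to 4. The Control libraries were close together, and the lowest OGD library was above all of them. The log2 fold change was 0.57 ± 0.14 (1.48-fold, adjusted p = 0.00873). With limma on log2 of FPKM plus 1 the value was 0.40 and the adjusted p 0.0862.

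**Figure D1:**
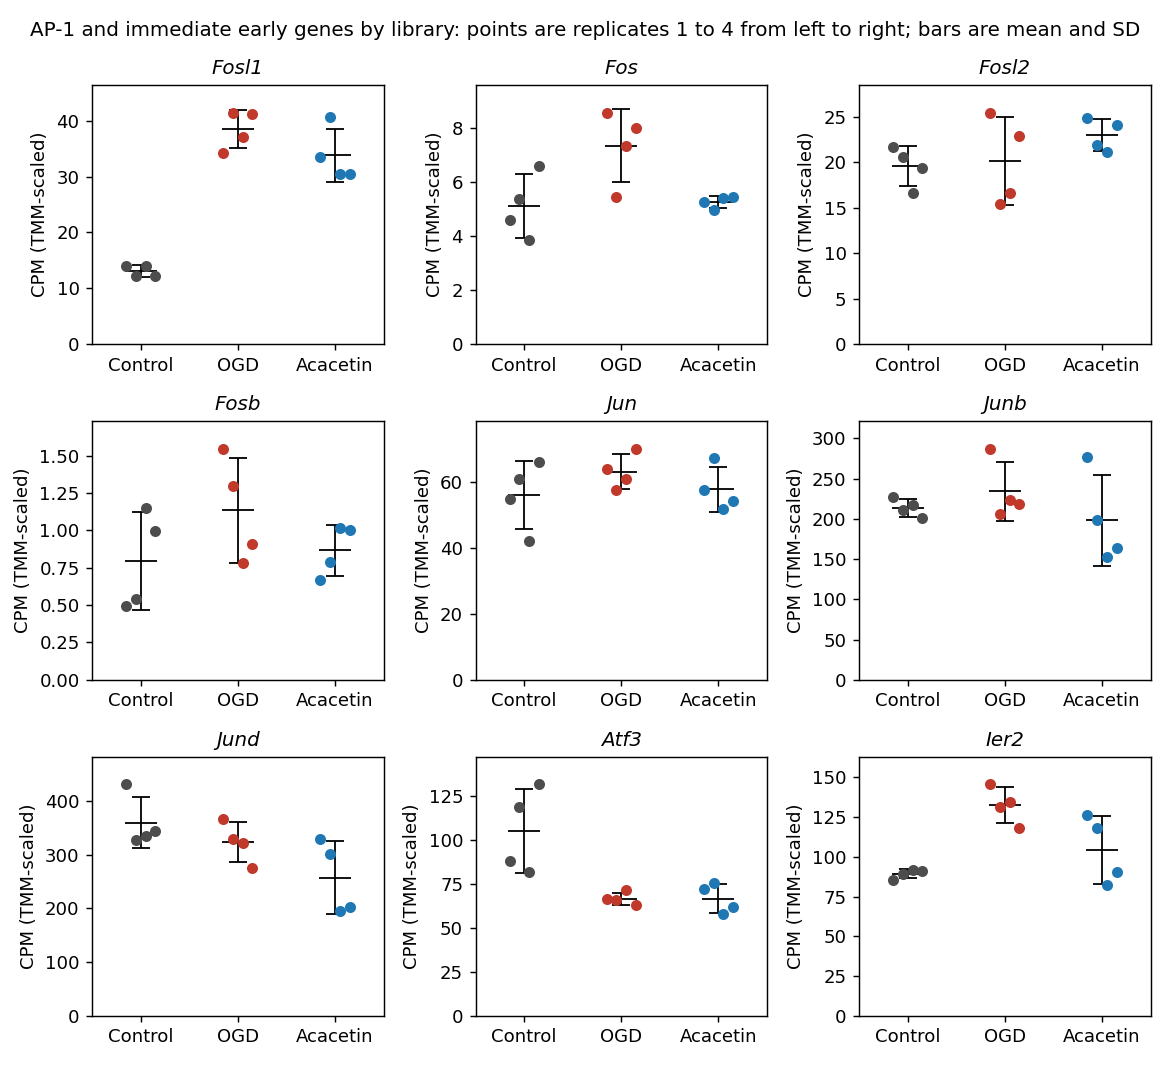
TMM-scaled CPM (vertical axes, linear, from 0) of the 9 tested genes in each of the 12 libraries, with points in replicate order and bars for the mean and SD of 4 libraries per group. Fosl1 is higher in every OGD and Acacetin library (30.5 to 41.5 CPM) than in any Control library (12.1 to 14.0 CPM), Atf3 is lower in both groups, and the Jun genes overlap between Control and OGD.

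In ratios within a library the scaling by library size cancels. By FPKM, Fosl1 made up 61.7%, 57.3%, 66.0% and 54.5% of the summed Fos family in Control 1 to 4, 72.1%, 83.2%, 78.7% and 77.4% in OGD 1 to 4, and 77.0%, 81.7%, 76.4% and 75.2% in Acacetin 1 to 4. Both treated groups lay above Control in every library. The share of Fos was 20.2% ± 4.44 (SD, n = 4) in Control, 12.9% ± 2.52 in OGD and 10.6% ± 1.44 in Acacetin, and that of Fosl2 was 18.8% ± 1.74, 8.55% ± 2.10 and 11.2% ± 1.43. The ratio of Fosl1 to Fosl2 was 2.83 to 3.99 in Control, 6.40 to 12.8 in OGD and 6.02 to 8.84 in Acacetin. Within OGD it was 12.8 and 10.7 in the libraries rich in 18S, OGD 2 and 3, and 6.40 and 8.54 in OGD 1 and 4. The slopes on gene length also differed, at -0.178 and -0.0969 in OGD 2 and 3 and -0.0455 and 0.199 in OGD 1 and 4. A trend with gene length need not cancel in such a ratio, and the cause of the split was not tested. These shares restate the rise of Fosl1 on another scale and were not tested.

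The Jun family kept its order in every library. Jund made up 66.0% ± 2.19 of its summed FPKM in Control, 61.5% ± 2.64 in OGD and 59.5% ± 2.14 in Acacetin. Junb held 28.6% ± 1.95, 32.2% ± 2.20 and 33.2% ± 2.45, and Jun 5.41% ± 1.14, 6.34% ± 1.00 and 7.23% ± 1.28. The Jund share in OGD ran from 58.6% to 64.7% and overlapped the Control range of 63.9% to 69.1%, whereas the Acacetin range of 58.0% to 62.7% lay below it. Atf3, which pairs with Jun, stood at 2.37 to 2.95 times the FPKM of Jun in Control, 1.33 to 1.73 times in OGD and 1.65 to 1.85 times in Acacetin, with no overlap between Control and either treated group. This ratio restates the fall of Atf3 on another scale. Neither it nor the Jun family shares were tested, and a trend with gene length need not cancel in them.

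**Figure D2:**
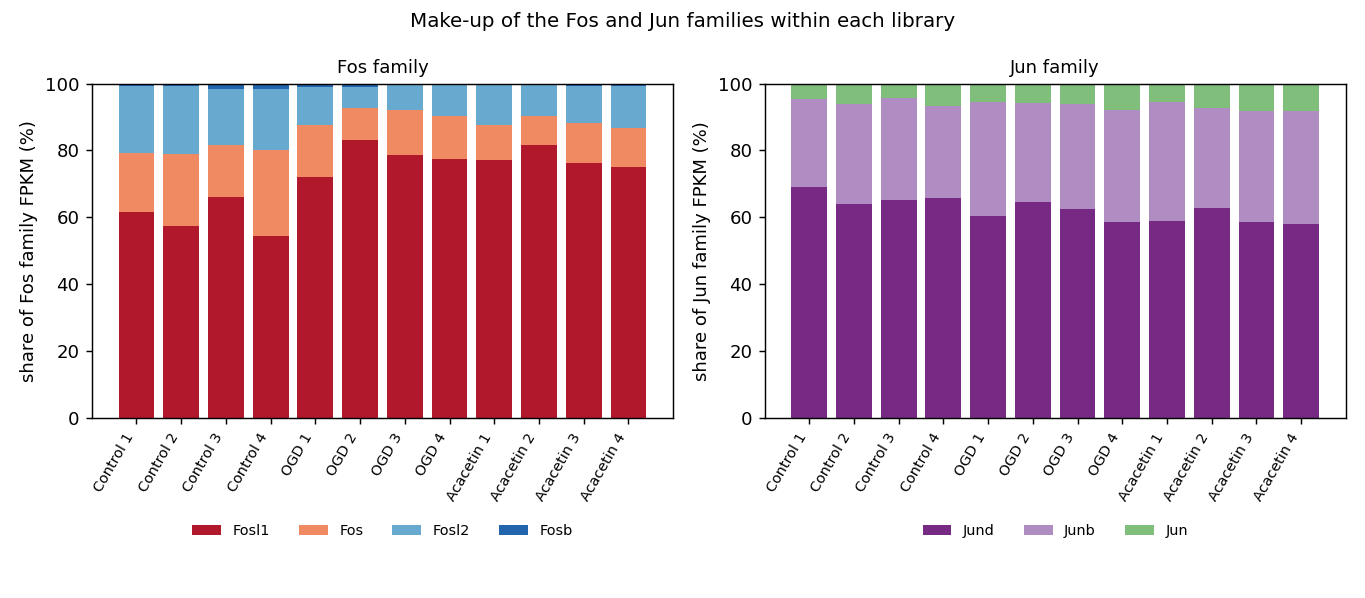
Share of the summed FPKM of the Fos family (left) and the Jun family (right) taken by each gene, in percent, with 1 stacked bar per library. Fosl1 takes 54.5% to 66.0% of the Fos family in Control and 72.1% to 83.2% in OGD and Acacetin, while Jund is the largest part of the Jun family in all 12 libraries.

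Acacetin against OGD asked whether the drug moved these genes in deprived cells. EdgeR called 0 of the 9, as it called 0% of all genes. At an unadjusted p under 0.05 it had 2 of the 9 and 685 of the 13249 genes (5.17%), and DESeq2 called 37 genes, with 0 of the 9 among them. Fos had 5.27, 4.95, 5.41 and 5.43 CPM in Acacetin 1 to 4, and all 4 values were below the lowest OGD library (5.45 CPM), although Acacetin 4 was only just below OGD 2. Fos was the 1 gene of the 9 whose groups did not overlap, lower in Acacetin as were 1.88% of all genes, out of 2.35% that did not overlap in either direction. By edgeR its log2 fold change was -0.48 ± 0.21, with an unadjusted p of 0.0405 and an adjusted p of 0.83.

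For Ier2 edgeR gave -0.34 ± 0.14 on the log2 scale, with an unadjusted p of 0.0291 and an adjusted p of 0.83. Its Acacetin libraries split into 127 and 118 CPM in Acacetin 1 and 2 and 82.2 and 90.6 CPM in Acacetin 3 and 4. Junb and Jund split in the same way, Junb with 277 and 199 against 153 and 164 CPM and Jund with 328 and 301 against 195 and 203 CPM. The slope on gene length was -0.236 and 0.0351 in Acacetin 1 and 2 and 0.346 and 0.144 in Acacetin 3 and 4. Within Acacetin the slope was higher in the libraries where these 3 genes were lower, and the cause of the split was not tested. With the length trend removed the log2 fold changes in Acacetin against OGD were -0.26 for Ier2, -0.18 for Junb and -0.26 for Jund, none called.

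Fosl1 stood at 33.4, 40.7, 30.5 and 30.5 CPM in Acacetin 1 to 4 (log2 fold change -0.19 ± 0.13, adjusted p = 0.835). Only Acacetin 2 lay inside the OGD range of 34.3 to 41.5 CPM, and the others lay below it. The fold of Acacetin over OGD was 0.877, from 0.732 to 1.05 within 2 SE. Its sign turned on FPKM + 1 (0.09) and with library totals in place of TMM (0.00). The median of all genes was 0.16 and 0.18 in these fits, so Fosl1 stayed below that median. Atf3 had 71.9, 75.4, 57.6 and 61.7 CPM, a log2 fold change of 0.00 ± 0.16 and a fold from 0.805 to 1.24 within 2 SE. Fosb, Fosl2, Jun, Junb and Jund had log2 fold changes between -0.39 and 0.19 and adjusted p-values between 0.83 and 0.905.

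Acacetin against Control asked how drug-treated deprived cells differed from Control cells. It shares the Control libraries with OGD against Control, so the values are given side by side and not as a second line of support. Of the 9 genes 1 rose, Fosl1, and 1 fell, Atf3, where 26.9% of all genes were called. At an unadjusted p under 0.05 there were 3 of the 9, Jund being the addition, against 40.1% of all genes. The log2 fold change of Fosl1 was 1.37 ± 0.13, beside 1.56 in OGD, and its adjusted p was 7.27e-05. Atf3 had -0.66 ± 0.16 (adjusted p = 0.00786), beside -0.66, but it was not called with limma on FPKM plus 1 (-0.48, adjusted p = 0.102) or with library totals in place of TMM (-0.52, adjusted p = 0.0562). The groups did not overlap in either gene, against 25.7% of all genes.

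Jund was not called in Acacetin against Control, with -0.49 ± 0.18 and an adjusted p of 0.0622. Its values spanned 195 to 328 CPM in Acacetin and 328 to 431 CPM in Control, so the highest Acacetin library just overlapped the lowest Control library. It passed in 8 of 20 alternatives, among them DESeq2 (adjusted p = 0.0198), the removal of the length trend (-0.38, adjusted p = 0.0261) and the omission of Acacetin 1 (-0.63, adjusted p = 0.00983), and did not pass without Control 1 (-0.39, adjusted p = 0.177). Ier2 was not called (0.22 ± 0.14, adjusted p = 0.253), but with the length trend removed it had 0.35 and an adjusted p of 0.0152. Fos, with 0.05 ± 0.21 (adjusted p = 0.889), was the closest to its Control level among the Fos genes beside a value of 0.53 in OGD against Control. Fosb, Fosl2, Jun and Junb had values between -0.11 and 0.23, with adjusted p-values from 0.318 to 0.840.

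**Figure D3:**
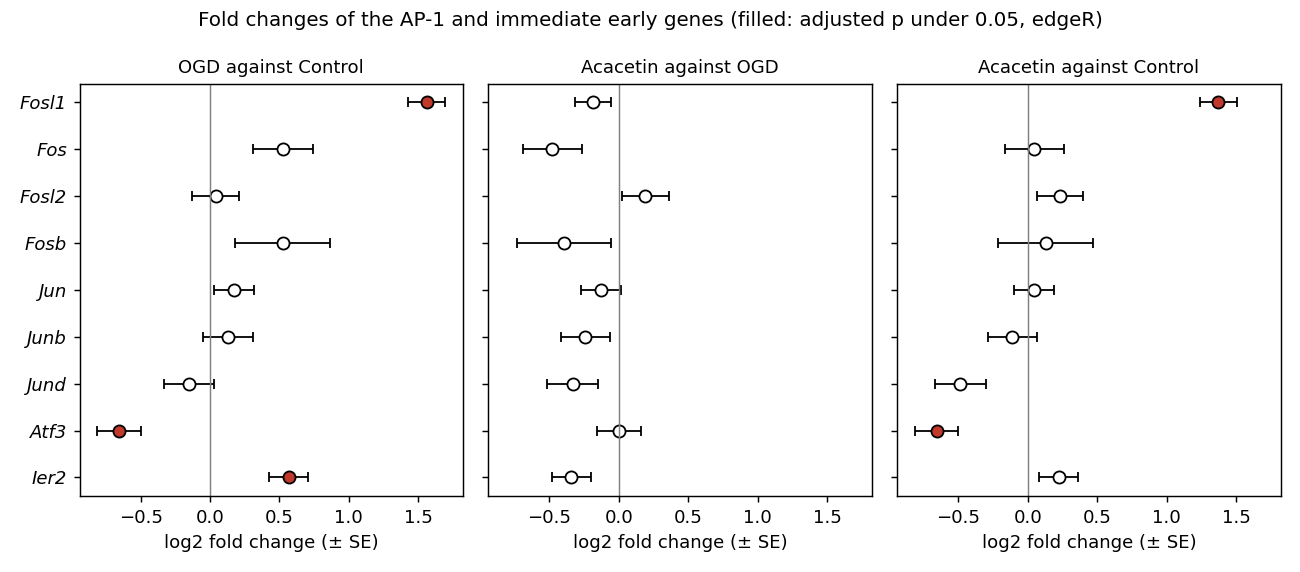
Log2 fold change (horizontal axis, with SE) of the 9 tested genes in each of the 3 comparisons, filled where the adjusted p of edgeR was under 0.05. Fosl1 (1.56 and 1.37) and Atf3 (-0.66 in both) are called against Control in OGD and in Acacetin, Ier2 is called in OGD (0.57) only, and none is called in Acacetin against OGD.

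Other immediate early genes were read from a list of 41, of which 34 were tested. In OGD against Control 4 rose, 10 fell and 20 were not called, where 28.8% of all genes were called (16.2% higher and 12.6% lower). The median log2 fold change was -0.05 against 0.03 for all genes. The rises included Arc, best known as an activity-induced gene of neurons, from 0.986 ± 0.249 to 2.79 ± 0.274 CPM (log2 fold change 1.49 ± 0.26), Trib1, a pseudokinase gene, from 6.80 ± 0.996 to 16.2 ± 3.32 CPM (1.25 ± 0.18) and Errfi1, a feedback inhibitor of the EGF receptor, from 5.90 ± 0.883 to 10.7 ± 1.62 CPM (0.87 ± 0.18). The falls included Plk2, a polo-like kinase gene, from 73.7 ± 30.2 to 25.7 ± 6.70 CPM (-1.52 ± 0.31), Phlda1 from 29.6 ± 7.10 to 11.6 ± 3.67 CPM (-1.35 ± 0.25) and the survival kinase gene Pim1 from 55.4 ± 11.4 to 27.2 ± 6.32 CPM (-1.03 ± 0.19). The adjusted p-values of these 6 genes ran from 0.000279 for Trib1 to 0.00294 for Errfi1, whose call was lost with limma on FPKM (0.141). In Acacetin against Control 3 rose, 13 fell and 18 were not called, where 14% of all genes were higher and 12.9% lower. The flow-responsive factor gene Klf2 was among the largest falls (-1.11 ± 0.28, adjusted p = 0.0108). There Arc, among the rises, lost its call in 11 of 20 alternatives, and Plk2, among the falls, in 4.

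Partners of these proteins were read from a list of 15 bZIP genes and Egr co-repressors, with 14 tested. The 3 called genes in OGD against Control stand beside the same 28.8%. In OGD against Control 2 rose, the small Maf genes Mafk (17.3 ± 1.48 to 30.7 ± 2.83 CPM, log2 fold change 0.83 ± 0.14) and Mafg (49.2 ± 4.52 to 71.3 ± 4.99 CPM, 0.53 ± 0.13). Small Maf proteins have no activation domain of their own and pair with factors such as NRF2. Ddit3, which encodes the stress factor CHOP, fell from 60.2 ± 24.4 to 16.2 ± 4.20 CPM (-1.90 ± 0.28), and 11 genes were not called. The same 3 were called the same way in Acacetin against Control, with 0.64, 0.36 and -2.61, where 26.9% of all genes were called. However, Mafg lost its call there in 9 alternatives (adjusted p = 0.137 without Acacetin 2), and in OGD against Control on FPKM + 1 (0.117).

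Kinases and factors that switch these genes on were read from a list of 37, with 36 tested, of which 5 rose, 2 fell and 29 were not called in OGD against Control, a smaller share than the 28.8% called over all genes. Srf, the serum response factor that drives Fos and Egr1, averaged 64.0 ± 5.27 CPM in Control and 128 ± 9.99 in OGD, a rise of 0.99 ± 0.15 on the log2 scale (adjusted p = 0.000395). Map2k3, which activates the stress kinase p38, rose by 0.80, and Mapk14, which encodes p38 alpha, rose by 0.74. Mapk3, which encodes the kinase ERK1, fell from 246 ± 13.1 to 101 ± 22.9 CPM (-1.28 ± 0.21, adjusted p = 0.000677), and the CREB coactivator gene Crtc3 fell by 0.70. Mapk14 lost its call on FPKM + 1 (adjusted p = 0.124). Crtc3 lost its call in 4 of 20 alternatives, among them FPKM + 1 (-0.29, adjusted p = 0.0557) and the omission of OGD 2 and 3 (0.119). In Acacetin against Control 4 rose and 2 fell, where 26.9% of all genes were called. Srf was at 0.78 ± 0.15, Mapk3 at -1.17 ± 0.21 and Map3k7, the gene of the kinase TAK1, at 1.15 ± 0.33. The call of Map3k7 was lost in 5 of 20 alternatives. Among them were limma on FPKM + 1 (adjusted p = 0.0837) and the omission of Control 2 (0.0675) or Acacetin 3 (0.0559).

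Genes known as AP-1 targets were read from a list of 14, with 11 tested. In OGD against Control 0 rose, 4 fell and 7 were not called, where 28.8% of all genes were called and 12.6% were lower. The median log2 fold change was -0.36, against 0.03 for all genes. In some alternatives 1 listed gene was called higher, such as library totals, the replicate block or the length trend removed. A listed gene was also called higher without Control 3, without OGD 1 and with only the 8 libraries compared. Plau, the urokinase gene, fell from 665 ± 131 to 321 ± 20.7 CPM (-1.05 ± 0.17, adjusted p = 0.000570). Spp1, the osteopontin gene, fell by 1.44 on the log2 scale, Vim, the vimentin gene, by 0.64 and Ccnd1, the cyclin D1 gene, by 0.37. Without OGD 2 and 3 the calls of Spp1 (-1.26, adjusted p = 0.110), Vim (-0.63, 0.0591) and Ccnd1 (-0.33, 0.0828) were lost. Ccnd1 lost its call in 6 of 20 alternatives, also without Control 1 (0.0600), Control 2 (0.0698) or OGD 2 (0.0608) alone. In Acacetin against Control 5 fell, where 12.9% of all genes were lower, among them Mmp9, a matrix protease gene, from 22.6 ± 1.43 to 13.1 ± 3.80 CPM, and Timp1, an inhibitor of such proteases, from 2.76 ± 0.392 to 1.34 ± 0.447 CPM. Vim and Ccnd1 lost their calls there in 9 and 12 of 20 alternatives, Vim for example without Control 4 (adjusted p = 0.101). Mmp9 lost its call there with limma on FPKM + 1 (adjusted p = 0.0817) and on FPKM + 0.1 (0.0789).

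Proteins that bind the AU-rich elements of short-lived mRNAs, such as that of Fos, were read from a list of 8. In OGD against Control 3 rose, 1 fell and 4 were not called, where 28.8% of all genes were called. Zfp36l2 averaged 16.6 ± 1.68 CPM in Control and 42.7 ± 10.2 in OGD, a rise of 1.36 ± 0.19 on the log2 scale (adjusted p = 0.000271), while its paralog Zfp36, which encodes the decay factor tristetraprolin and also stands in the list of immediate early genes, fell from 102 ± 15.8 to 63.8 ± 3.68 CPM (-0.68 ± 0.14, adjusted p = 0.00306). Hnrnpd and Khsrp rose by 0.60 and 0.49, but neither was called on FPKM (adjusted p = 0.314 and 0.309). In Acacetin against Control Zfp36l2 rose by 1.27, and Zfp36 and Zfp36l1 fell by 0.94 and 0.89, where 26.9% of all genes were called. Zfp36l1 lost its call there in 7 of 20 alternatives. Among them were limma on FPKM + 1 (adjusted p = 0.192), library totals (0.213) and the omission of Control 4 (0.129).

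**Figure D4:**
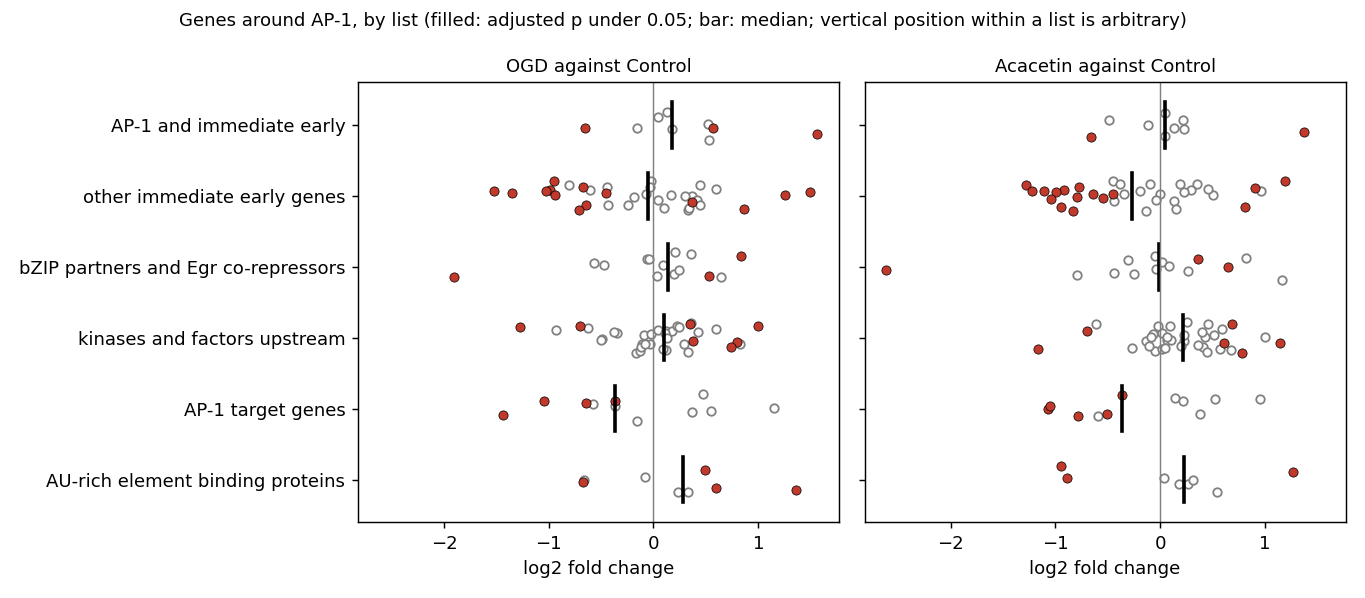
Log2 fold change (horizontal axis) of each tested gene in 6 lists, in OGD (left) and Acacetin (right) against Control, filled where the adjusted p was under 0.05, with a bar at each list's median. Both panels share the Control libraries. Called genes of the AP-1 target list all lie below 0 (4 in OGD and 5 in Acacetin), while the other 5 lists hold called genes on both sides in both panels.

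Genes with a profile like that of Fos, Jun and Atf3 were sought among the 10127 genes averaging 2 CPM or more, by the root mean square difference of centred log2 CPM over the 12 libraries. For Fos the nearest were Pard6b (0.13), Cnnm4 (0.17) and Il15ra (0.18), where the median gene was at 0.47. For Jun they were Zfp740 (0.10), Tgif1 (0.11) and Pik3r5 (0.12), against a median of 0.40. For Atf3 they were Mkrn2 (0.14), AU040320 (0.15) and Gm9828 (0.15), against 0.49. A gene with a flat profile would lie at about the SD of the member itself, 0.33 for Fos, 0.20 for Jun and 0.37 for Atf3. Mkrn2, for example, averaged 23.8 CPM in Control, 15.6 in OGD and 15.4 in Acacetin. With 1 read, Egr1 has no such profile.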

How the data were processed

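Total RNA of BV2 cells was sequenced in pairs from stranded mRNA libraries, per the labels' protocols. The authors deposited read counts for each gene, not normalised, and FPKM values for 24728 genes. Per the submitters' processing notes, the tools were bcl2fastq, HISAT2 and DESeq2 and the build GRCm39. The sources used here name no read counter, annotation release or strand setting. All sample columns matched a library by name, and 0 were left over.

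Counts were tested with edgeR 4.0.16 (R 4.3.3): filterByExpr by group (minimum count 10, minimum total 15), TMM scaling, 1 quasi-likelihood fit over 12 libraries with a mean per group, two-sided contrasts, and Benjamini-Hochberg adjustment over all 13249 tested genes. Calls needed an adjusted p under 0.05. The SE was taken from the fold change and its F statistic. Log2 CPM for gene profiles used a prior count of 2. The model code was tested on simulated data.

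The genes described and the gene lists were chosen with earlier results of these data known. From each list the text names, for OGD against Control, the 3 called rises and 3 called falls with the largest change (all where 5 or fewer were called) among genes averaging at least 1 CPM. For Acacetin against Control the text names only some of the genes that this rule gave. The alternatives were DESeq2 1.42.0, its size factors, other filters, only the 8 libraries compared, a replicate block, limma 3.58.1 on log2(FPKM + 1) and log2(FPKM + 0.1), and leaving out each library. Chosen after the data were seen were leaving out rRNA genes with Lars2, library totals without TMM, removing a trend with gene length (lowess, span 0.5), and leaving out OGD 2 and 3 or Acacetin 1 and 3. No 2 libraries of a group agreed within sampling noise (smallest chi-square per gene 22.5).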

Additional observations from a re-analysis of the deposited data

Results flagged for a closer look

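Jund in Control 1 stood at 431 CPM, apart from the other 3 Control libraries at 328 to 345 CPM, a gap of 0.835 of the group's range, above Dixon's critical value for 4 samples. Of 27 groups examined this was the only such case, and chance gives about 1 in 20. Without Control 1 the log2 fold change of Jund was -0.06 in OGD against Control (adjusted p = 0.873) and -0.39 in Acacetin against Control (adjusted p = 0.177).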

How the results depend on the processing

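In OGD against Control 3 or 4 of the 9 genes were called (4 with DESeq2 and without OGD 2), but 2 with limma on FPKM, where Ier2 was lost. In Acacetin against OGD 0 were called in every alternative, and over all genes 37 by DESeq2, 8 without a filter, 9 without Acacetin 1, and from 0 to 4 otherwise. In Acacetin against Control, where 2 were called, the count was 1 with limma on log2(FPKM + 1), 1 on log2(FPKM + 0.1), 1 with library totals without TMM and 4 with the length trend removed, and 2 to 3 with each library left out. Over all genes, 2010 were called in OGD against Control without OGD 2 and 3, where 3813 were called with them, and 5818 in Acacetin against Control without Acacetin 1, where 3559 were called with it. The share of higher calls was 56.3% in OGD against Control but 32.2% and 33.7% on FPKM, and 52% in Acacetin against Control but 63.4% with library totals. Library totals moved the median of all genes to 0.24 in Acacetin against Control and 0.18 in Acacetin against OGD, and FPKM + 0.1 moved it to 0.17 and 0.24 there and to -0.11 in OGD against Control. Relative to that median, Atf3 in Acacetin against Control was at -0.76 with library totals. On FPKM the calls of the upstream list in OGD against Control were 3 in place of 7 and those of the AU-rich list 2 in place of 4, and in Acacetin against Control the immediate early list had 8 and 9 in place of 16 and the target list 2 in place of 5. Without OGD 2 and 3 the target list had 1 call in OGD against Control in place of 4, and the upstream list 4 in place of 7. In OGD against Control library totals gave 4 upstream and 2 AU-rich calls, and the 8 libraries compared alone gave 12 upstream calls. In Acacetin against Control library totals gave 10 immediate early calls, and the 8 libraries compared alone gave 3 target calls. Leaving out Acacetin 1 and 3 gave 3 target calls as well, as did leaving out Control 2, Acacetin 2 or Acacetin 3. The bZIP list had 5 calls with DESeq2 in Acacetin against Control and 6 without Acacetin 1, in place of 3. The cause of these shifts was not tested.

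Among the 9 genes, sign changes were limited to those not called. In OGD against Control Fosl2 was at -0.056 and -0.124 on FPKM + 1 and + 0.1, and Junb at -0.033 and -0.034. In Acacetin against OGD Fosl1 was at 0.0900 and 0.0972, Jun at 0.149 and 0.160 and Junb at 0.0228 and 0.0238 on the same FPKM scales. On these scales the median of all genes was -0.039 and -0.108 in OGD against Control and 0.157 and 0.241 in Acacetin against OGD. With library totals Fosl1 was at 0.00180 and Jun at 0.0469, and Junb in Acacetin against Control at 0.00274. Fosl2 in Acacetin against OGD was at -0.0255 without OGD 2 and 3. With each library left out, Fosl2 in OGD against Control ranged from -0.0941 to 0.152, and in Acacetin against OGD Atf3 ranged from -0.0636 to 0.0845. In Acacetin against Control Fos ranged from -0.0694 to 0.241, Fosb from -0.0422 to 0.352 and Jun from -0.0716 to 0.170.

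Whether the replicate numbers shared by the groups pair the samples was not settled: deviations of same-numbered libraries correlated from -0.29 to 0.51, over 0.1 in 8 of 12 pairs, and best with their own number in 6 of 12. Numbers 1 and 4 were over 0.1 in all 3 comparisons and number 3 in none, so the samples were not treated as paired. With the replicate block 3, 0 and 3 of the 9 genes were called in the 3 comparisons, Jund being the addition in Acacetin against Control (-0.51, adjusted p = 0.0144), and 4572, 2 and 4279 of all genes. The upstream list had 11 calls with the block in OGD against Control. Atf3 in Acacetin against OGD was at -0.00881 with the block. Low reads limit Fosb and Egr1.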

Other observations

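Some genes of the lists had Acacetin libraries that were all below the OGD libraries, although edgeR called none of them, as was so for 1.88% of all genes. The 3 examples given here were chosen after their values were seen. Dusp1, a phosphatase gene that switches off MAP kinases, stood at 19.0 ± 1.42 CPM in OGD against 14.2 ± 1.56 in Acacetin (log2 fold change -0.42 ± 0.16, edgeR adjusted p = 0.83). Arc averaged 2.79 ± 0.274 and 1.72 ± 0.369 CPM (-0.69 ± 0.25, edgeR adjusted p = 0.83) and Hnrnpd 58.7 ± 8.46 and 44.0 ± 6.32 CPM (-0.42 ± 0.14, edgeR adjusted p = 0.823).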
